A study of Homo sapiens with 12 samples.

Results

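The hypoxia, glycolysis and glycogen genes are a list of 40 named genes covering the oxygen-sensing machinery, targets induced by low oxygen, glucose and lactate transport, the steps of glycolysis and the handling of glycogen. Members were found by gene symbol in the array's annotation, and 37 of the 40 had at least 1 probe set of their own, 124 probe sets in all. Each gene was read through its brightest probe set, the one with the highest mean over all arrays. All 37 were among the 16205 genes tested, those with a log2 signal of at least 5 on at least 2 arrays. CA9, SLC16A3 and SLC2A3 were not analysed here, the last because its probe sets are shared with SLC2A14 in the annotation.

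The study used 3 human lung cancer cell lines, H1993, H1693 and H1650, chosen according to its design for overexpression of MARK2, a kinase with microtubule-associated proteins among its substrates. The 6 groups were H1993 KD, H1993 pLKO, H1693 KD, H1693 pLKO, H1650 KD and H1650 pLKO, with 2 arrays each and 12 in all. KD cells had received an shRNA to MARK2 by lentiviral transduction, and pLKO cells the empty vector, so the controls carry no hairpin of another sequence. Both arrays of each group come from biological replicates according to the design text, and neither the culture time, the oxygen level nor the number of hairpins is given in the sources used here.

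Cells sense oxygen through prolyl hydroxylases of the EGLN family, which mark the HIF alpha subunits for destruction when oxygen is present. In low oxygen HIF1A and EPAS1 persist, pair with ARNT and raise transcription of genes for angiogenesis, pH control, mitophagy, glucose uptake and glycolysis. HIF alpha subunits are controlled mainly as proteins, so their transcript level does not report their activity. Glycolysis is in addition set by its own rate-limiting enzymes, hexokinase, phosphofructokinase and pyruvate kinase, and glycogen stores glucose through branching and synthase enzymes under the control of phosphatase targeting subunits such as PPP1R3C.

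MARK2 itself was measured first. Its log2 signal was 6.76 and 6.77 in H1993 KD against 9.17 and 9.06 in H1993 pLKO, and 6.62 and 6.57 in H1693 KD against 7.76 and 7.97 in H1693 pLKO. Its log2 signal fell by 2.35 in H1993 (limma adjusted p = 6.47e-06) and fell by 1.27 in H1693 (adjusted p = 0.000258). In H1650 the arrays labelled KD read 5.92 and 5.37 against 6.07 and 5.80 in pLKO. The groups overlapped and the log2 change of -0.29 did not pass the threshold (limma adjusted p = 0.156). The H1650 pLKO mean of 5.94 lay near the log2 floor of 5. The other MARK2 probe set read 4.53 in KD and 4.50 in pLKO there. These arrays therefore leave little range in which a fall of MARK2 in H1650 could be seen. RNA integrity, read as the log2 signal of the 3′ minus the 5′ control probe sets of GAPDH, was 6.82 ± 0.07 in H1650 KD against 2.68 ± 0.56 in H1650 pLKO (SD, n = 2 each), and between -0.10 and 0.00 on average in the other 4 groups. The H1650 values below therefore stand beside a difference in RNA integrity between the groups compared, and its part in them was not tested. All 6 epithelial markers read a log2 signal of at least 5 on every array. So did 3 of 6 fibroblast markers (COL1A1, COL1A2 and PDGFRB), 3 of 6 leukocyte markers (CD3E, CD68 and CD79A) and all 4 endothelial markers, the leukocyte list reaching 11.6 and the fibroblast list 11.9. DCN (fibroblast) and PTPRC (leukocyte) read below 5 on every array, and COL3A1, LUM, CD14 and LYZ on some; the part of such markers in the results was not tested. In such bulk RNA, fewer cells with a transcript and less transcript per cell cannot be told apart.

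The control arrays of the lines differed first in the level of these genes. H1693 pLKO had the lowest mean log2 signal of the 3 lines for 26 of the 37 members, 70.3%, against 37.9% of all tested genes, and H1650 pLKO had the highest for 25 members, 67.6%, against 43.6%. Between H1993 and H1693 controls 23 members were higher in H1993 and 7 lower, 81.1% of the 37 (62.2% and 18.9%), where 63.0% of all tested genes passed the threshold in either direction (30.1% higher, 32.9% lower). Between H1993 and H1650 controls 5 were higher in H1993 and 23 lower, 75.7% of the members (13.5% and 62.2%) beside 63.8% of all genes (23.7% higher, 40.1% lower). Between H1693 and H1650 controls 2 were higher in H1693 and 29 lower, 83.8% of the members (5.41% and 78.4%) beside 63.0% of all genes (24.5% higher, 38.5% lower). The median log2 difference over members was 0.46, -0.38 and -0.65 in these 3 comparisons, in the order given, and over all tested genes 0.00, -0.12 and -0.12. Scaling bears on the comparisons with H1650. Of all genes called between H1993 and H1650 controls 37.18% were higher in H1993, against 53.26% after repeated quantile normalisation and 59.46% after centring each array on its median, and between H1693 and H1650 the shares were 38.9%, 51.62% and 55.63%. With centring the members split 12 higher and 16 lower between H1993 and H1650, and 4 higher and 24 lower between H1693 and H1650. The choice of probe set bears on them too. By the mean of all probe sets 14 members were higher and 17 lower in H1993 than in H1650. By that mean 8 were higher and 27 lower in H1693 than in H1650, and 24 higher and 8 lower in H1993 than in H1693.

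**Figure D1:**
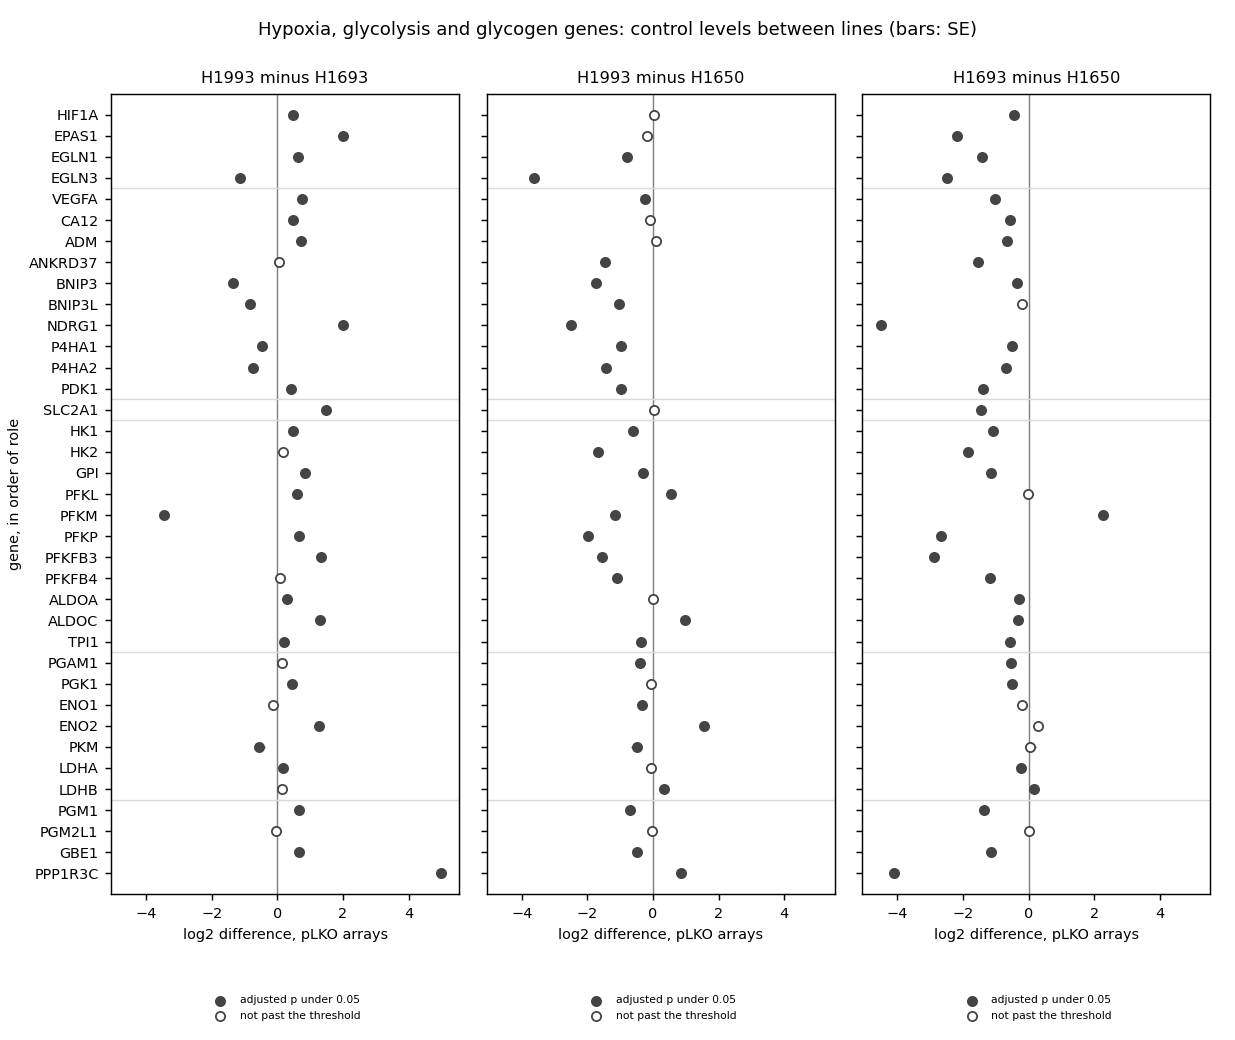
Comparison of the log2 signal of the 37 measured genes between the pLKO controls of H1993, H1693 and H1650, in order of role. H1693 had the lowest mean log2 signal for 26 of the 37 genes. PFKM was an exception, with a log2 signal of 12.63 and 12.62 in H1693 pLKO. PPP1R3C, NDRG1 and EGLN3 had the widest gaps between lines.

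The widest gap between controls belonged to PPP1R3C, which targets protein phosphatase 1 to glycogen. Its log2 signal was 11.50 and 11.59 in H1993, 6.62 and 6.50 in H1693, and 10.61 and 10.75 in H1650. H1993 thus stood 4.98 above H1693 (limma adjusted p = 1.52e-11) and 0.86 above H1650, and H1693 differed from H1650 by -4.12 on the log2 scale. NDRG1, a stress-induced protein used as a marker of hypoxia, read 10.50 and 10.52 in H1993, 8.54 and 8.47 in H1693 and 12.98 and 13.06 in H1650, so the 3 lines formed 3 separate levels. Its differences were 2.00 between H1993 and H1693, -2.51 between H1993 and H1650 and -4.51 between H1693 and H1650 (limma adjusted p between 5.09e-11 and 6.26e-09), although by the mean of its 6 probe sets H1993 stood 0.52 above H1650. EGLN3, the hydroxylase most strongly induced by HIF, was dim in H1993 (5.48 and 5.65) and H1693 (6.75 and 6.69) and bright in H1650 (9.09 and 9.32), log2 differences from H1650 of -3.64 and -2.49.

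EPAS1 separated H1693 from the other lines, with a log2 signal of 13.42 and 13.41 in H1993 pLKO, 11.45 and 11.36 in H1693 pLKO and 13.53 and 13.64 in H1650 pLKO. H1993 and H1650 did not differ past the threshold in it (-0.17, limma adjusted p = 0.0527), and by the mean of its probe sets H1993 stood 1.68 above H1650. These control levels of H1650 stand beside a 3′ minus 5′ difference that is higher in H1650 pLKO (2.68) than in the controls of H1993 (-0.10) and H1693 (0.00), and its part in them was not tested. SLC2A1, the glucose transporter GLUT1, was also lowest in H1693 by its brightest probe set. It read 12.20 and 12.21 in H1993, 10.78 and 10.69 in H1693 and 12.16 and 12.20 in H1650. Its log2 difference between H1993 and H1693 was 1.47, and its arrays in H1993 and H1650 overlapped by that probe set. The SLC2A1 probe set ranked 2 by mean was lowest in H1650, with 11.66, 9.75 and 9.09 in H1993, H1693 and H1650 pLKO. The one ranked 3 was also lowest in H1650 (7.97), and the one ranked 4 was lowest in H1693 (5.74). BNIP3, a mitophagy receptor, ran in another order, 10.79 and 10.84 in H1993, 12.15 and 12.21 in H1693 and 12.51 and 12.58 in H1650. PFKM, the muscle-type phosphofructokinase, was the gene in which H1693 was highest by the widest margin: 12.63 and 12.62, against 9.06 and 9.30 in H1993 and 10.29 and 10.41 in H1650. Its log2 difference was -3.44 between H1993 and H1693 and 2.28 between H1693 and H1650 (limma adjusted p = 6.24e-09). The platelet-type isoform PFKP was lowest in H1693, 10.41 and 10.38, against 11.05 and 11.07 in H1993 and 13.07 and 13.04 in H1650. PFKFB3, which makes the fructose bisphosphate that activates phosphofructokinase, and HK2, an inducible hexokinase, were both highest in H1650 by the brightest probe set. The log2 differences of H1993 and H1693 from H1650 were -1.56 and -2.88 for PFKFB3 and -1.67 and -1.84 for HK2. By its other probe set HK2 was lowest in H1650, with 8.27, 7.96 and 7.52 in H1993, H1693 and H1650 pLKO. The PFKFB3 probe set ranked 2 by mean was highest in H1993 (7.99, 7.51 and 7.85). Those ranked 3 and 4 were dim and highest in H1650 (5.73 and 5.48).

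Between KD and pLKO arrays these genes differed in both directions, and in H1650 this compares arrays labelled KD in which MARK2 did not fall past the threshold. In H1993 9 of 37 members rose and 6 fell, 24.3% and 16.2%, where 18.9% and 14.5% of all tested genes rose and fell, 33.4% in either direction. In H1693 5 rose and 14 fell, 13.5% and 37.8%, where 17.1% and 15.9% of all genes did, 33.0% in either direction. In H1650 14 rose and 7 fell, 37.8% and 18.9%, where 36.7% and 16.7% of all genes did, 53.4% in either direction, so in H1993 and H1650 the shares lay near those of all genes and in H1693 the share that fell lay above. The median log2 change over members was -0.06, -0.15 and 0.06 in H1993, H1693 and H1650, and over all tested genes 0.02, -0.02 and 0.15. The share of rises among all called genes was 56.55% in H1993, against 49.02% and 43.54% after quantile normalisation and centring, and 68.78% in H1650, against 57.73% and 63.53%. The members split 9 and 6 (quantile) and 8 and 10 (centring) in H1993 and 13 and 9 and 12 and 10 in H1650, rises before falls. Each comparison uses 1 line's own pLKO arrays, which also enter the comparisons of control levels.

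The F test of whether the change differed between the 3 lines passed for 25 of the 37 members, 67.6%, where 54.9% of all genes passed. Patterns of calls across the lines were counted for the members only, and their shares over all tested genes were not counted. Among the members only PFKM and PGM2L1 rose in all 3 lines, and only NDRG1 and PGK1 fell in all 3, by the brightest probe set. ADM and PDK1 fell in both H1993 and H1693. P4HA2 and PFKP rose in H1993 and fell in H1693. EPAS1, PFKL, ALDOA, PGAM1 and PGM1 passed the threshold in no line by the brightest probe set. By the mean of all probe sets 4 of these 5 fell in H1650, EPAS1 by 0.40, ALDOA by 1.30, PGAM1 by 1.15 and PGM1 by 1.24 (limma adjusted p at most 0.000452), and PGAM1 fell by 0.21 in H1693 (adjusted p = 0.0283). For scale, LDHA and ALDOA read 13.95 or above on every array.

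**Figure D2:**
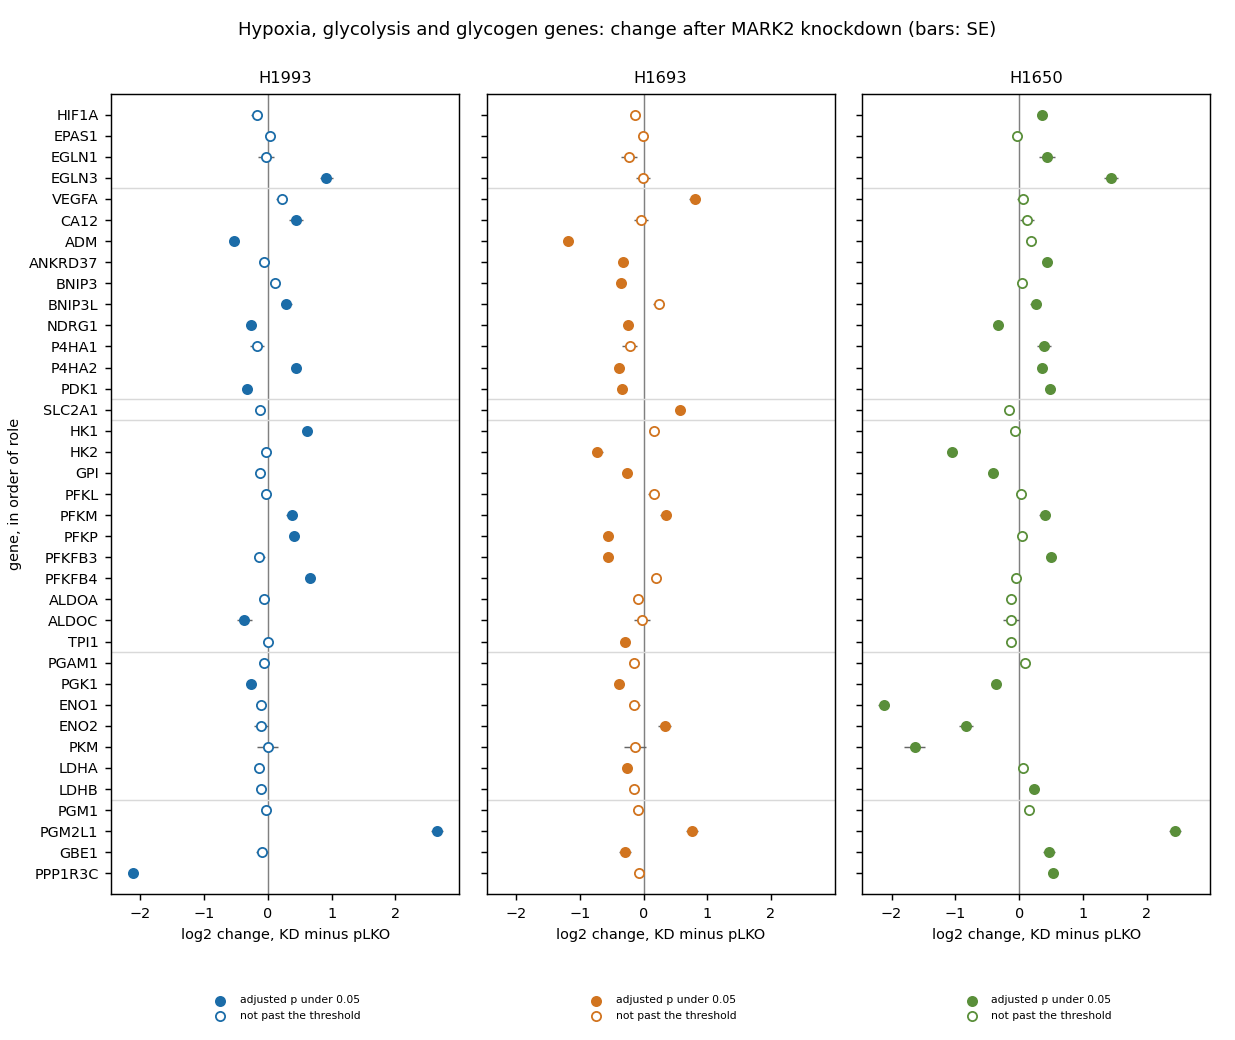
Log2 change, KD minus pLKO, of the 37 genes in H1993, H1693 and H1650, with the standard error as a bar and filled symbols for genes past an adjusted p of 0.05. PGM2L1 lies farthest right in H1993 (2.65) and H1650 (2.45), and PPP1R3C lies farthest left in H1993 (-2.12) while its H1693 change (-0.07) is not past the threshold.

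The stretch around the transcription start is shown for 4 members: PGM2L1, which rose in every line; PPP1R3C, with the widest difference between H1993 and H1693; ADM, with the largest fall in H1693; and PGK1, which fell in every line. Each is 300 bases from RefSeq on GRCh38.p14, 250 before the start and 50 from it on: chr11:74398384-74398683 for PGM2L1 and chr10:91633022-91633321 for PPP1R3C on the minus strand, and chr11:10304823-10305122 for ADM and chrX:78103998-78104297 for PGK1 on the plus strand. Capitals mark ACGTG and GCGTG, the core of the HIF response element, on either strand, 5′ to 3′.
PGM2L1: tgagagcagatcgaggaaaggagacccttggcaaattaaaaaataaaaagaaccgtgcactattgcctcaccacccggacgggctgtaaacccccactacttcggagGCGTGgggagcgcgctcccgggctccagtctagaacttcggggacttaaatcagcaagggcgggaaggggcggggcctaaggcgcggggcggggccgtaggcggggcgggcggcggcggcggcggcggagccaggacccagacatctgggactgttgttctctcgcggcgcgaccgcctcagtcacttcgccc
PPP1R3C: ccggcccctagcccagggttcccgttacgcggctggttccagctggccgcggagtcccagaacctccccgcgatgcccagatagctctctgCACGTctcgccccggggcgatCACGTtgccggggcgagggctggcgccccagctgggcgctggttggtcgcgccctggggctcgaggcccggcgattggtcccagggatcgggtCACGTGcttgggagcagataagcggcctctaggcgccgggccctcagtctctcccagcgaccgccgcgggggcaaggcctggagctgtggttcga
ADM: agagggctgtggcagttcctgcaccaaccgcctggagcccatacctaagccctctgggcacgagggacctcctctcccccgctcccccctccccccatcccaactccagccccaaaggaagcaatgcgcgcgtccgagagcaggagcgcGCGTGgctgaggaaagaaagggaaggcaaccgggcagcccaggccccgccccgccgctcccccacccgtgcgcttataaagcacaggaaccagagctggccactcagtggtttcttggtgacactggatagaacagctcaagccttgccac
PGK1: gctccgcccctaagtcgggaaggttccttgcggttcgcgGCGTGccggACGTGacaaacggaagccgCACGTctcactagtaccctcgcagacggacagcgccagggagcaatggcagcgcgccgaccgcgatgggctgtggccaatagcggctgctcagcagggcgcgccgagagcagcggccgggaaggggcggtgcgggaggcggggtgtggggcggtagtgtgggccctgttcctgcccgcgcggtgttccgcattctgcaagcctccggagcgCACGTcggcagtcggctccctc
ACGTG was found at 4 places in PPP1R3C, of which the palindrome CACGTG counts as 2 overlapping ones, at 3 in PGK1 and at 0 in PGM2L1 and ADM. GCGTG was found at 1 place in each of PGM2L1, ADM and PGK1, and at 0 places in PPP1R3C. Of 65 such windows of 36 members in the table, 38.5% held ACGTG and 41.5% GCGTG on either strand, and 66.2% held either. Of all 35116 windows the shares were 21.4%, 36.5% and 48.4%. A match in these letters is a description of the window only.

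Of the 4 oxygen-sensing genes 1, EGLN3, rose in H1993, 0 passed the threshold in H1693, and 3 rose in H1650. Beside this and the other counts by role stand the shares of all tested genes that rose and fell. They were 18.9% and 14.5% in H1993, 17.1% and 15.9% in H1693, and 36.7% and 16.7% in H1650. No role group was tested as a set. HIF1A, the inducible alpha subunit, had a log2 signal of 12.53 and 12.40 in H1993 KD against 12.65 and 12.64 in H1993 pLKO, and 11.96 and 12.13 in H1693 KD against 12.15 and 12.19 in H1693 pLKO. The KD arrays were the lower ones in both lines, and the log2 changes of -0.18 and -0.13 did not pass the threshold by this probe set (limma adjusted p = 0.136 and 0.274). Its other 7 probe sets all read lower in KD in H1993, and the mean over all 8 fell by 0.38 in H1993 (limma adjusted p = 0.00142) and by 0.27 in H1693 (adjusted p = 0.0108). In H1650 the brightest probe set read 13.02 and 12.94 in KD against 12.56 and 12.69 in pLKO, a rise of 0.36, while the mean of all 8 fell by 1.56 (limma adjusted p = 5.79e-08), so its direction in H1650 turned with the probe set. EPAS1 had log2 changes of 0.03, -0.01 and -0.04 in H1993, H1693 and H1650, and its KD and pLKO arrays overlapped in each line.

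EGLN3 read 6.51 and 6.46 in H1993 KD against 5.48 and 5.65 in H1993 pLKO, and 10.78 and 10.52 in H1650 KD against 9.09 and 9.32 in H1650 pLKO. All KD arrays stood above their controls, and EGLN3 rose by 0.92 in H1993 (SE 0.11, limma adjusted p = 0.000143) and by 1.44 in H1650. In H1693 it read 6.71 and 6.71 in KD against 6.75 and 6.69 in pLKO, with no separation. The 3 EGLN3 probe sets changed by 0.26 to 0.92 in H1993, by -0.34 to -0.01 in H1693 and by -0.50 to 1.44 in H1650. EGLN1, the main oxygen sensor of the family, changed by -0.03 and -0.23 in H1993 and H1693, neither past the threshold by the brightest probe set (the mean of its 3 fell by 0.40 in H1693, limma adjusted p = 0.00161), and rose by 0.43 in H1650, where the call was lost without KD array 1 (0.31) or pLKO array 1 (0.30).

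Among the 10 measured hypoxia targets 3 rose and 3 fell in H1993, 1 rose and 6 fell in H1693, and 5 rose and 1 fell in H1650. In H1650 36.7% of all tested genes rose, and in H1693 15.9% fell. ADM, the vasodilator peptide adrenomedullin, had a log2 signal of 11.81 and 11.78 in H1993 KD against 12.38 and 12.29 in H1993 pLKO, and 10.46 and 10.36 in H1693 KD against 11.63 and 11.58 in H1693 pLKO. The groups were apart in both lines, and ADM fell by 0.54 in H1993 (limma adjusted p = 0.000527) and by 1.19 in H1693 (adjusted p = 6.46e-06), to 43.8% of the signal in H1693 pLKO. Its 3 probe sets all read lower in KD in both lines, and in H1650 its change of 0.19 did not pass (adjusted p = 0.0672). VEGFA, the main angiogenic factor, moved the other way in H1693: 11.19 and 11.38 in KD against 10.53 and 10.43 in pLKO, a rise of 0.81 (limma adjusted p = 9.65e-05). All 10 VEGFA probe sets read higher in H1693 KD, by 0.14 to 0.99. Its changes of 0.21 in H1993 and 0.06 in H1650 were not past the threshold.

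P4HA2, a collagen prolyl hydroxylase subunit, read 11.39 and 11.43 in H1993 KD against 10.93 and 11.00 in pLKO, 11.34 and 11.34 in H1693 KD against 11.70 and 11.74 in pLKO, and 12.75 and 12.78 in H1650 KD against 12.43 and 12.40 in pLKO. It rose by 0.45 in H1993 and 0.35 in H1650 and fell by 0.38 in H1693. BNIP3 fell in H1693, 11.80 and 11.83 in KD against 12.15 and 12.21 in pLKO (change -0.36, limma adjusted p = 0.0017). PDK1, which diverts pyruvate away from mitochondria by inhibiting pyruvate dehydrogenase, fell by 0.33 in H1993 (7.97 and 7.87 in KD against 8.22 and 8.26 in pLKO) and by 0.34 in H1693 (7.43 and 7.51 against 7.87 and 7.76), and rose by 0.49 in H1650. Each of the 2 falls lost its call without certain single arrays: pLKO array 2 (-0.31) or KD array 2 (-0.28) in H1993, and pLKO array 1 (-0.29) or KD array 1 (-0.30) in H1693.

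CA12, a membrane carbonic anhydrase, rose in H1993, 7.08 and 7.05 in KD against 6.76 and 6.50 in pLKO, by 0.44 (limma adjusted p = 0.0112), a call lost without KD array 1 (0.42) or pLKO array 2 (0.31). NDRG1 changed by -0.27, -0.24 and -0.33 in H1993, H1693 and H1650. Its calls in H1993 (without pLKO array 1, pLKO array 2 or KD array 2, -0.28 to -0.23) and in H1693 (without pLKO array 1, pLKO array 2 or KD array 2 of that line, or either H1993 pLKO array, -0.27 to -0.16) were the least stable, and the mean of its probe sets changed by -0.05 in H1693 and -0.14 in H1650, neither past the threshold. BNIP3L, a relative of BNIP3, rose by 0.29 in H1993 and 0.26 in H1650; both calls were lost on leaving out any H1993 array in H1993 (0.26 to 0.32), or KD array 1 (0.14) or pLKO array 1 (0.19) in H1650, and the mean of its 6 probe sets changed by -0.08 in H1993 and -0.11 in H1650. ANKRD37 fell by 0.32 in H1693, a call lost without KD array 2 (-0.26) and by the mean of its 2 probe sets (-0.15, limma adjusted p = 0.145), and rose by 0.44 in H1650. P4HA1 rose in H1650 by 0.39, a call lost without KD array 1 (0.32) or pLKO array 1 (0.29).

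SLC2A1 was the only transporter of the list with its own probe set. It read 11.37 and 11.24 in H1693 KD against 10.78 and 10.69 in H1693 pLKO, and rose by 0.57 (SE 0.07, limma adjusted p = 0.000176), all 4 probe sets being higher by 0.19 to 0.65. In H1993 it read 12.11 and 12.06 in KD against 12.20 and 12.21 in pLKO, and in H1650 12.02 and 12.03 against 12.16 and 12.20. The KD arrays were the lower ones in both, with log2 changes of -0.13 and -0.16 that did not pass (adjusted p = 0.196 and 0.075), although the mean of the 4 probe sets fell by 0.32 in H1650 (limma adjusted p = 0.0024).

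**Figure D3:**
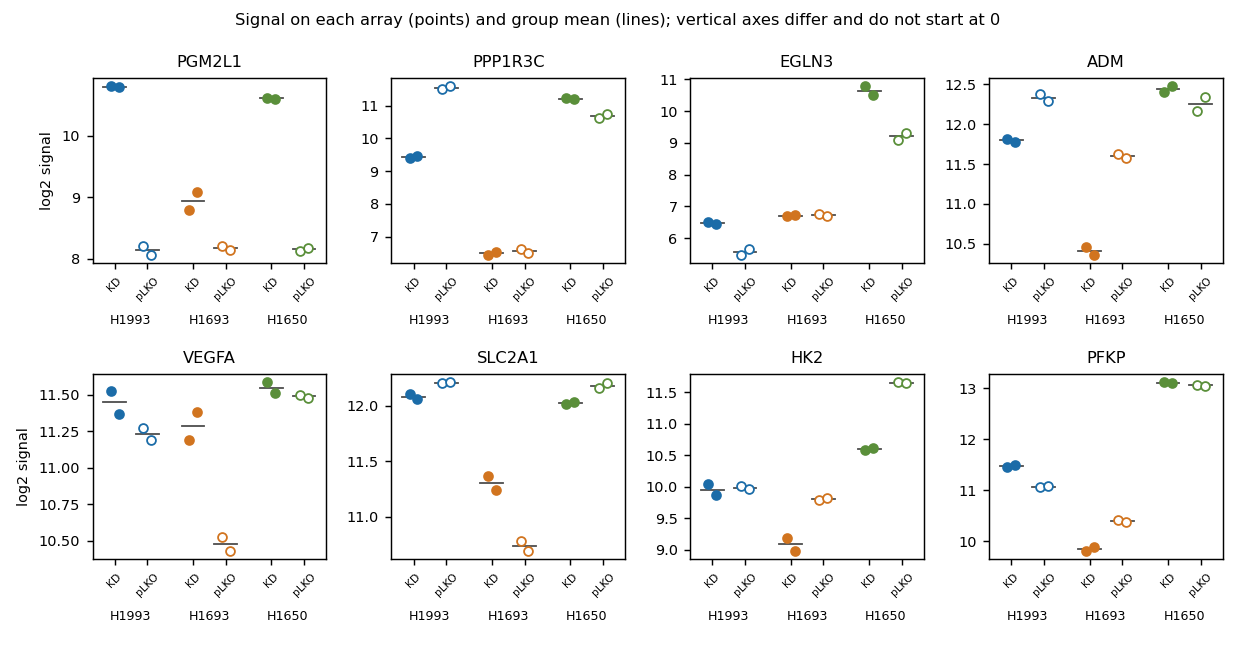
Log2 signal on each array (points) with the group mean (lines) for 8 genes, KD beside pLKO within each line; vertical axes differ and do not start at 0. PGM2L1 KD points lie above pLKO points in every line, VEGFA KD points lie above pLKO points in every line by different amounts, HK2 KD points lie below them in H1693 and H1650, and PFKP KD points lie above them in H1993 and below them in H1693.

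In upper glycolysis, 11 genes up to triose phosphate isomerase, 4 rose and 1 fell in H1993, 1 rose and 5 fell in H1693, and 2 rose and 2 fell in H1650. The hexokinases, which trap glucose as glucose 6-phosphate, changed by isoform and line. HK1, the constitutive form, read 13.45 and 13.41 in H1993 KD against 12.80 and 12.82 in H1993 pLKO, a rise of 0.61 (limma adjusted p = 0.000101) with 0.57 to 0.64 over its 4 probe sets. HK2 read 9.19 and 8.99 in H1693 KD against 9.80 and 9.83 in H1693 pLKO and fell by 0.73 (adjusted p = 0.000145); in H1650 it read 10.59 and 10.61 in KD against 11.66 and 11.65 in pLKO and fell by 1.05. The other HK2 probe set changed by -0.41 in H1693 and 0.08 in H1650. Changes of HK1 in H1693 (0.17) and H1650 (-0.06) and of HK2 in H1993 (-0.03) did not pass the threshold by the brightest probe set. The mean of the 4 HK1 probe sets rose by 0.25 in H1693 (limma adjusted p = 0.0112) and fell by 1.00 in H1650 (adjusted p = 5.43e-07), where they changed by -1.66 to -0.06.

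Phosphofructokinase, the committed step, also differed by isoform. PFKP read 11.45 and 11.49 in H1993 KD against 11.05 and 11.07 in pLKO, and 9.82 and 9.88 in H1693 KD against 10.41 and 10.38 in pLKO; it rose by 0.41 in H1993 and fell by 0.55 in H1693 (limma adjusted p = 0.000528 and 9.51e-05). PFKM rose in every line, 9.56 and 9.54 in H1993 KD against 9.06 and 9.30 in pLKO, 12.98 and 12.97 in H1693 KD against 12.63 and 12.62 in pLKO, and 10.74 and 10.76 in H1650 KD against 10.29 and 10.41 in pLKO. The rises were 0.37, 0.35 and 0.40, and the call was lost in H1993 without pLKO array 1 (0.25) and in H1693 without any 1 of its 4 arrays (0.35 each, limma adjusted p at least 0.0503). PFKL, the liver type, passed in no line.

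PFKFB3 read 7.97 and 7.82 in H1693 KD against 8.50 and 8.39 in pLKO and fell by 0.56 (limma adjusted p = 0.000586), and in H1650 it read 11.87 and 11.78 in KD against 11.32 and 11.33 in pLKO and rose by 0.50, where the mean of its 4 probe sets changed by -0.14. PFKFB4, a related enzyme, read 9.26 and 9.32 in H1993 KD against 8.58 and 8.69 in pLKO and rose by 0.66 (limma adjusted p = 9.64e-05). Its other 3 probe sets changed by -0.13 to 0.09, and the mean of all 4 by 0.18, not past the threshold (adjusted p = 0.124). ALDOC, the brain-type aldolase, fell by 0.37 in H1993, 8.73 and 8.43 in KD against 9.06 and 8.84 in pLKO. That call was lost without KD array 2 (-0.22), without pLKO array 1 (-0.26) and without any 1 of the H1693 arrays (limma adjusted p = 0.0611 to 0.0614), although all 5 probe sets read lower. GPI fell by 0.27 in H1693, lost without any 1 of its arrays (-0.27 to -0.26), and by 0.42 in H1650. TPI1 fell by 0.29 in H1693, and in H1650 its change was -0.13 by the brightest probe set and -0.60 by the mean of its 3 (limma adjusted p = 1.1e-05).

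In lower glycolysis, 7 genes from phosphoglycerate kinase to lactate dehydrogenase, 1 fell and 0 rose in H1993, 1 rose and 2 fell in H1693, and 1 rose and 4 fell in H1650. PGK1, an enzyme that makes ATP, read 13.54 and 13.47 in H1993 KD against 13.74 and 13.81 in pLKO, 12.95 and 12.92 in H1693 KD against 13.34 and 13.29 in pLKO, and 13.51 and 13.44 in H1650 KD against 13.83 and 13.85 in pLKO. KD arrays were lower in every line, and PGK1 fell by 0.27, 0.38 and 0.37. All 9 probe sets read lower in H1993 (-0.80 to -0.26) and H1693 (-0.81 to -0.34), and the H1993 call was lost without pLKO array 2 (-0.23) or KD array 2 (-0.24). LDHA, which turns pyruvate into lactate, fell by 0.26 in H1693, lost without pLKO array 1 or KD array 1 (-0.24 each), with all 4 probe sets lower. Its change in H1993 was -0.14 (limma adjusted p = 0.0992).

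ENO2, the neuronal enolase, rose by 0.33 in H1693, a call lost without any 1 of the H1693 arrays (0.27 to 0.39) or either H1993 KD array (0.33). The large falls in lower glycolysis were in H1650. ENO1, the main enolase, read 11.94 and 12.18 in H1650 KD against 14.25 and 14.13 in pLKO, and PKM, pyruvate kinase, 11.35 and 11.98 against 13.35 and 13.26. They fell by 2.12 and 1.64 (limma adjusted p = 1.94e-07 and 3.06e-05), and ENO2 by 0.83 (7.63 and 7.35 against 8.43 and 8.23). In H1993 and H1693 the ENO1 changes were -0.11 and -0.15 and that of PKM in H1693 -0.13, none past the threshold, nor was that of PKM in H1993 (limma adjusted p = 0.997). The 6 PKM probe sets changed by -2.13 to -0.09 in H1650, and the 9 of PGK1 by -3.41 to 0.07. LDHB rose by 0.23 in H1650, a call lost without KD array 1 (0.19) or pLKO array 1 (0.16).

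**Figure D4:**
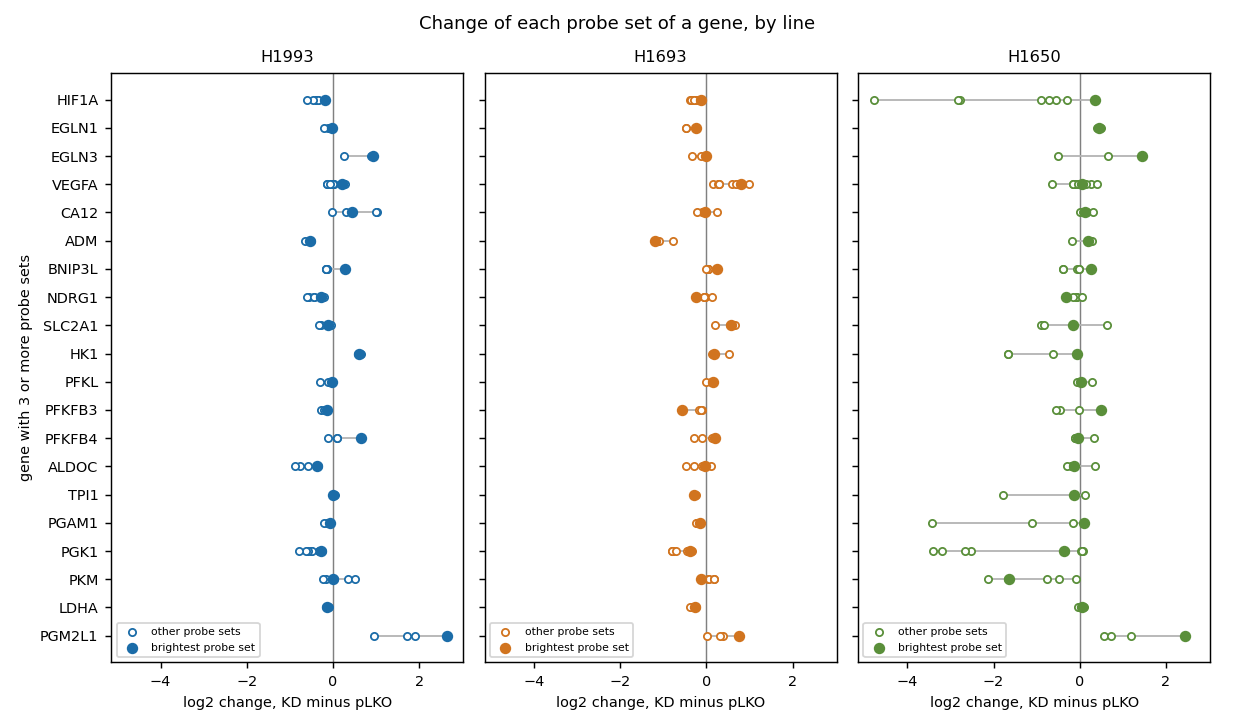
Log2 change, KD minus pLKO, of every probe set of the 20 members with 3 or more, with the brightest one filled, in H1993, H1693 and H1650. The changes of HIF1A probe sets reach down to -4.78 in H1650, and those of PGM2L1 range between 0.96 and 2.65 in H1993.

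For 29 members with more than 1 probe set, the SD of the log2 change across probe sets had a median of 0.144 in H1993 and 0.167 in H1693, against 0.483 in H1650. The count of falls in H1650 was 7 by the brightest probe set and 15 by the mean of all probe sets, while in H1993 it was 6 and 7 and in H1693 14 and 15.

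Of the 4 glycogen genes 1 rose and 1 fell in H1993 and likewise in H1693, and 3 rose in H1650. PGM2L1, which makes glucose 1,6-bisphosphate, the activator of phosphoglucomutase, read 10.80 and 10.79 in H1993 KD against 8.21 and 8.07 in pLKO, 8.79 and 9.09 in H1693 KD against 8.21 and 8.14 in pLKO, and 10.62 and 10.60 in H1650 KD against 8.13 and 8.18 in pLKO. By this brightest probe set the controls of the 3 lines did not differ past the threshold (-0.03, -0.02 and 0.02), and KD arrays stood above them in every line. The difference between H1993 and H1650 controls turned its sign with array centring and repeated quantile normalisation. In H1993, H1693 and H1650 pLKO the probe set ranked 2 by mean read 7.96, 8.25 and 7.72. The one ranked 3 read 7.46, 7.86 and 6.96, and the one ranked 4 read 6.88, 7.37 and 7.29. PGM2L1 rose by 2.65 in H1993 (SE 0.09, limma adjusted p = 2.55e-07), a 6.30-fold rise in signal, by 0.77 in H1693 (adjusted p = 0.000227) and by 2.45 in H1650. Its other 3 probe sets read 0.96 to 1.90 higher in H1993 KD, 0.02 to 0.38 higher in H1693 KD and 0.57 to 1.18 higher in H1650 KD.

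PPP1R3C fell in H1993, with a log2 signal of 9.39 and 9.45 in KD against 11.50 and 11.59 in pLKO, a log2 change of -2.12 (limma adjusted p = 2.55e-07, SE 0.08) or 23.0% of the pLKO signal. Its other probe set changed by -2.36 there. In H1693, where it was dim, it read 6.45 and 6.53 in KD against 6.62 and 6.50 in pLKO, and the overlapping groups did not differ past the threshold (-0.07, adjusted p = 0.537). In H1650 it read 11.22 and 11.19 in KD against 10.61 and 10.75 in pLKO, a rise of 0.53, while its other probe set changed by -1.56. GBE1, the branching enzyme, fell by 0.29 in H1693, a call lost without any 1 of the H1693, H1650 KD or H1993 pLKO arrays (-0.31 to -0.27), and rose by 0.46 in H1650. PGM1, the main phosphoglucomutase, passed in no line by the brightest probe set.

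The difference between the changes in H1993 and H1693 was tested directly and passed for 14 of the 37 members, 37.8%, where 22.1% of all genes passed. The log2 change was higher in H1993 for 11 of them and lower for 3, 29.7% and 8.11% of the members, where the shares over all genes were 12.6% and 9.48%. The widest differences were those of PPP1R3C (-2.05, limma adjusted p = 9.5e-06), PGM2L1 (1.89, adjusted p = 2.4e-05), PFKP (0.96), EGLN3 (0.93), P4HA2 (0.83) and SLC2A1 (-0.70). Changes of ADM in H1993 and H1693 shared their direction and differed by 0.65 (adjusted p = 0.00265). By role, 6 of the 14 were upper glycolysis genes, all with the higher log2 change in H1993, and 0 were lower glycolysis genes. The difference passed for VEGFA (-0.59), HK2 (0.69), BNIP3, PFKFB4, HK1, PFKFB3 and TPI1 as well, and the calls of PFKFB3 (0.42) and TPI1 (0.30) were lost on leaving out single arrays, for TPI1 any 1 of the H1993 or H1693 arrays.

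Lists of 115 other genes of the same pathways were named beside the members, and 102 of them were tested. Beside the counts of each list stand the shares of all tested genes that rose and fell. They were 18.9% and 14.5% in H1993, 17.1% and 15.9% in H1693, and 36.7% and 16.7% in H1650. No list was tested as a set. Among 23 other hypoxia-inducible genes 6 rose and 6 fell in H1993, and 9 rose and 3 fell in H1693. The largest in H1993 were PLOD1 (0.96) and TMEM45A (0.94), with ERO1A, an oxidase of the endoplasmic reticulum, at 0.76. In H1693 they were DDIT4, an inhibitor of mTORC1 (1.25), STC2 (0.89), BHLHE40 (0.83) and VLDLR (0.74). DDIT4 fell in H1993 by 0.59, a difference between the lines of -1.84 (limma adjusted p = 9.95e-06). In H1650, where 10 rose and 8 fell, the largest were falls of ANGPTL4 (-2.13), STC2 (-1.56), HMOX1 (-1.51) and PLOD1 (-1.41).

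Of 13 oxygen sensors and HIF partners 3 rose and 1 fell in H1993, 4 rose and 1 fell in H1693, and 7 rose and 1 fell in H1650. ARNT, the shared HIF partner, had rises of 0.67 (H1993), 0.39 (H1693) and 0.28 (H1650), and HIF1AN, which hydroxylates HIF1A and blocks its coactivators, of 0.37, 0.40 and 0.26, a call lost in H1993 without pLKO array 1 (0.33) or KD array 2 (0.26). The H1650 values of ARNT and HIF1AN are by the brightest probe set and were not compared under other settings. ARNT2 fell by 0.77 in H1993. Of 25 other genes of glycolysis, gluconeogenesis and lactate transport 4 rose and 4 fell in H1993, 3 rose and 1 fell in H1693, and 9 rose and 6 fell in H1650. TIGAR, a phosphatase that slows glycolysis, fell by 1.18 in H1993 and by 0.34 in H1693, where the call was lost without pLKO array 1 (-0.31), pLKO array 2 (-0.36) or KD array 1 (-0.25). By the mean of its probe sets the TIGAR change in H1693 was -0.06, not past the threshold (limma adjusted p = 0.591). PCK2, the mitochondrial gluconeogenic enzyme, rose by 1.40 in H1693, where its change in H1993 was -0.06, and the transporter SLC2A10 by 1.15.

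Of 24 other glycogen genes 4 rose and 0 fell in H1993, 6 rose and 3 fell in H1693, and 13 rose and 5 fell in H1650. PYGL, the liver-type phosphorylase that breaks glycogen down, rose by 0.88 in H1993 and fell by 0.43 in H1693, a difference of 1.31 (limma adjusted p = 0.00028). GAA, which digests glycogen in lysosomes, rose by 0.67 and 0.70 in these lines and fell by 0.74 in H1650, and PGM2 fell by 0.59 in H1693. Of 10 genes of the pyruvate dehydrogenase complex and its regulators 1 rose and 5 fell in H1993, 3 rose and 5 fell in H1693, and 4 rose and 2 fell in H1650. PDK3 fell by 0.57 in H1993 and 0.64 in H1693 and PDP1, the activating phosphatase, rose by 0.52 and 0.33. Of 7 genes of the pentose phosphate pathway 0 rose and 2 fell in H1993, 2 rose and 2 fell in H1693, and 0 rose and 4 fell in H1650. RPE fell by 0.71 in H1993 and 0.57 in H1693, and the fall of PGD by 0.36 and 0.27 lost its call without pLKO array 2 in H1993 (-0.29) and without any 1 of the H1693 arrays in H1693 (-0.31 to -0.23).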

How the data were processed

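Biotinylated cRNA from total RNA of 12 cultures was measured on PrimeView arrays. For each probe set the authors deposited a log2 signal; the submitters' processing notes name Affymetrix Expression Console and RMA, with no version in the sources used here. This method corrects background, normalises the arrays to 1 distribution and summarises probes, and dim signal compresses differences. Array medians ran from 7.13 to 7.32, and the number of arrays limits the precision. Of 49395 probe sets, 44994 have 1 gene symbol in the platform annotation, 1832 several and 2569 none, and 44961 of the 44988 kept matched RefSeq by gene ID. They name 18132 genes, each read by its brightest probe set on average; 16205 reached a log2 signal of 5 on 2 arrays and were tested.

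With limma 3.58.1 (R 4.3.3) a linear model with a mean per group was fitted over the 12 arrays (eBayes, 6 residual and 3.52 prior degrees of freedom), and contrasts of KD against pLKO, of the pLKO arrays between lines and of the changes between lines were tested two-sided. P-values were adjusted by Benjamini-Hochberg over all tested genes, with a threshold of 0.05; SE is the standard error of that fit. The fit was tested on simulated data. The members, the other gene lists and the markers were chosen with earlier results of these data known. Values on every array are given for up to 12 members with the largest called changes in H1993 and in H1693, up to 8 in H1650, up to 6 for each other contrast, and HIF1A, EPAS1 and MARK2; each other list is described by up to 4 called genes per line. Genes named beyond this (such as NDRG1, BNIP3L, P4HA1, LDHA and GBE1 in the knockdown comparisons) were chosen after their values were seen. So were values of other-list genes in further lines, among them ARNT, HIF1AN and GAA in H1650, PDP1 and PYGL in H1693 and PCK2 in H1993. Those values were not compared under other settings. Alternatives were repeated quantile normalisation, array centring, the mean of all probe sets, other signal filters, an intensity trend, array weights, fits within lines, a replicate block and leaving out each array. RefSeq promoter windows (GRCh38.p14) were searched for 2 motifs on both strands. Probe positions along transcripts were not used.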

Additional observations from a re-analysis of the deposited data

Results flagged for a closer look

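The change after MARK2 knockdown differed between H1993 and H1693 for 14 genes by limma's test of the difference itself, at an adjusted p below 0.05. PPP1R3C had the lowest value, -2.05 on the log2 scale (H1993 change minus H1693 change), falling in H1993 where its H1693 signal was dim in both groups. SLC2A1 (-0.70) and VEGFA (-0.59) rose in H1693 and did not pass the threshold in H1993. PGM2L1 rose in both lines and its change was higher in H1993 by 1.89, the highest value of the 14. PFKP (0.96) and P4HA2 (0.83) rose in H1993 and fell in H1693. EGLN3 (0.93), HK1 (0.45) and PFKFB4 (0.47) rose in H1993 and did not pass in H1693, and HK2 (0.69), BNIP3 (0.47), PFKFB3 (0.42) and TPI1 (0.30) fell in H1693 and did not pass in H1993. ADM fell in both, less in H1993 (0.65). By the mean of all probe sets the differences of PFKFB3 (0.04) and PFKFB4 (0.19) were not past the threshold.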

How the results depend on the processing

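Of 104 counts recomputed under other settings, 101 stayed within 1.5 times the reported count. The exceptions were the members that fell in H1993, 10 with array centring against 6, those that rose in H1693, 8 with array weights against 5, and those that fell in H1650, 15 by the mean of all probe sets against 7. Leaving out each array in turn gave 7 to 9 rises and 2 to 6 falls in H1993, 3 to 6 rises and 9 to 14 falls in H1693, and 10 to 15 rises and 7 falls each time in H1650. Without pLKO array 2 of H1993 3 members fell there, and without KD array 2 of H1993 2 did. The control comparisons gave 27 to 30 (H1993 and H1693), 26 to 29 (H1993 and H1650) and 29 to 34 (H1693 and H1650) calls, the difference between H1993 and H1693 changes 12 to 16, and the F test 21 to 26. Of 164 called values of members and MARK2, 135 kept sign and call without each array in turn. With the replicate number as a block, 14 members differed between the changes of H1993 and H1693, as without it. Under the block 8 rose and 6 fell in H1993, 5 rose and 14 fell in H1693, and 13 rose and 7 fell in H1650. The F test then passed for 23. Deviations of same-numbered arrays correlated at 0.29, -0.18 and -0.11 in H1993, H1693 and H1650. The labels do not say whether a number marks a shared batch, and these values cannot settle it. Calls lost under the block were 5, among them BNIP3L in H1993 and H1650.

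By the mean of all probe sets the sign turned for BNIP3L (-0.079) in H1993 KD, and in H1650 KD for HIF1A (-1.56), BNIP3L (-0.11), PFKFB3 (-0.14), PGAM1 (-1.15), PGM1 (-1.24), PPP1R3C (-0.52), SIAH1 (-0.22) and PDP1 (-0.20). It turned between controls of H1993 and H1693 for EGLN1 (-0.0063), between H1993 and H1650 for EPAS1 (1.68), VEGFA (0.42), NDRG1 (0.52), HK1 (0.38), PGAM1 (0.13), PGK1 (0.29) and PKM (1.75), between H1693 and H1650 for ADM (0.23), BNIP3L (0.23) and PFKL (0.26), and in the difference between H1993 and H1693 changes for EPAS1 (-0.28). Array centring turned the controls of H1993 and H1650 for VEGFA (0.052), GPI (0.0016), PGK1 (0.24), LDHA (0.26) and PGM2L1 (0.29), and repeated quantile normalisation for PGM2L1 (0.31). The cause was not tested. Dim genes such as PPP1R3C in H1693 have compressed differences.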
